A study of Nothobranchius furzeri with 15 samples.

Results

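Liver RNA from male Nothobranchius furzeri, the turquoise killifish, an annual African fish with a very short life, was compared between fish given rotenone and fish given the solvent alone, with both rotenone doses taken as 1 exposed group. The exposed group held 10 libraries, 5 labelled rotenone 15 pM and 5 labelled rotenone 150 pM, and the control group held the 5 libraries labelled DMSO, so all 15 libraries of the series were used and membership followed the treatment label alone. Every library came from liver of males of the inbred GRZ strain aged 9 weeks, which is common to the exposed and control fish. Libraries are numbered as in their sample titles, 1 to 5 at 15 pM, 8 to 12 at 150 pM and 1 to 5 in DMSO. The labels name no route or length of exposure, no tank and no sequencing run, so tanks or runs and the groups cannot be told apart. They also do not say that each library is a separate fish, so p-values measure the spread between these libraries, which may be partly technical.

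Rotenone is a plant-derived compound that blocks complex I of the mitochondrial respiratory chain, the enzyme that passes electrons from NADH to ubiquinone. Hepatocytes, the main cells of the liver, depend on mitochondria for ATP, for fatty acid oxidation and for the synthesis of secreted proteins, glucose and bile acids. The pooled comparison asked which liver transcripts differed from the solvent control at both doses together. In the deposited files genes carry identifiers without names, and 0 of 26739 identifiers were found in the reference gene table used here. Gene functions, pathway members and the markers that would check the liver label were therefore not analysed here, and genes are described as groups by direction, size, abundance and spread, with 4 identifiers printed. In whole-tissue RNA, fewer cells of a type and less RNA per cell cannot be told apart.

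Total counts ranged from 22185038 to 31465939 in rotenone libraries and from 25160285 to 35672589 in DMSO libraries, and 18903 to 20211 genes and 19357 to 20245 genes had a count. The 10 most abundant genes took 27.2 ± 4.27% of the counts in rotenone libraries and 28.3 ± 1.12% in DMSO libraries (SD, n = 10 and n = 5). Levels are given in CPM, counts scaled by the library total and by a TMM factor for each library, which ranged from 0.864 to 1.15. Where a gene has 0 counts, counting error alone allows up to 3. On library totals without TMM factors, 3 counts are 0.0841 to 0.135 CPM in these libraries. Earlier results on these libraries had shown that 15 pM library 4 and 150 pM libraries 8 and 10 stand apart from the rest of their doses, and the main counts are given with and without them. Leaving out DMSO library 2 also moved the counts strongly.

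Rotenone livers differed from DMSO livers mostly by lower transcript levels. Of 15834 genes tested, 309 were lower and 21 were higher with rotenone, 330 in all (edgeR quasi-likelihood test, adjusted p under 0.05). This is 2.08% of the genes tested, 1.95% lower and 0.133% higher, and lower genes made up 93.6% of the calls. At an unadjusted p under 0.05 the directions were closer to balance, with 1122 lower and 814 higher genes. The median log2 fold change over all genes tested was 0.035. The counts of lower and higher genes were 716 and 191 with 15 pM library 4 left out, 100 and 4 with DMSO library 2 left out, and 176 and 7 with DMSO library 1 left out. DESeq2 called 544 lower and 201 higher genes, which lowers the share of lower genes to 73.0%.

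Among the genes called, the lower ones mostly changed by larger factors than the higher ones. Lower genes had a median log2 fold change of -2.12, with quartiles of -2.62 and -1.52 and a range of -5.53 to -0.35. Among these 309 genes, 278 were at least 2-fold lower, 170 at least 4-fold and 36 at least 8-fold. Higher genes had a median log2 fold change of 0.74, with quartiles of 0.60 and 1.37 and a range of 0.43 to 4.01. Of these 21 genes, 8 were at least 2-fold higher and 2 at least 8-fold. The median standard error of the log2 fold change was 0.37 in the lower and 0.17 in the higher genes. Small changes could therefore pass less easily among the lower genes, and the contrast in size is partly built in.

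**Figure D1:**
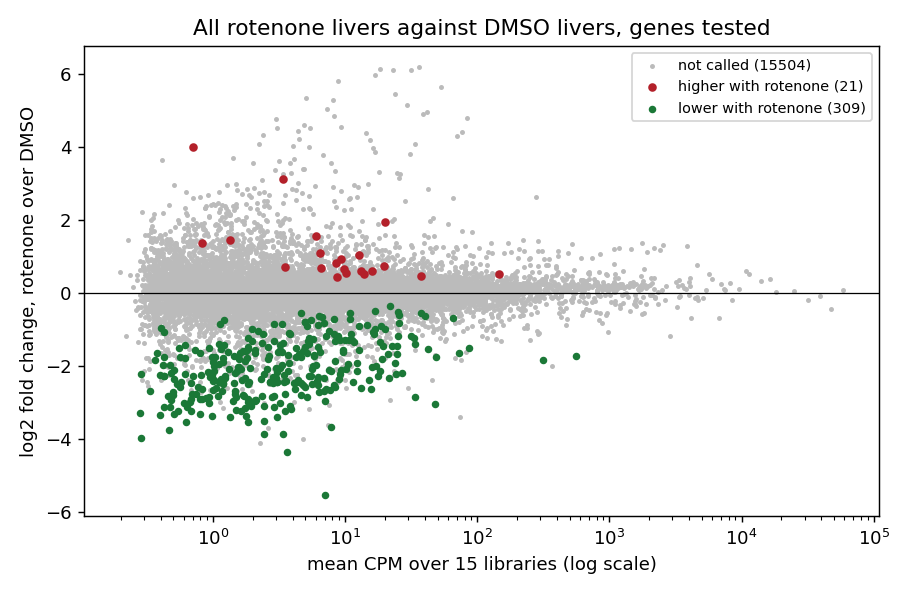
Fold change of each of the 15834 genes tested (log2 of rotenone over DMSO, vertical axis) against its mean CPM over 15 libraries (log scale, horizontal axis), with the 21 higher genes in red, the 309 lower genes in green and genes that did not pass the test in grey. The green points lie mostly between -1 and -3 at low abundance, while many grey points lie above a log2 fold change of 3.

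Of the 26739 genes, 0 had at most 3 counts in every rotenone library and at least 10 in every DMSO library, and 0 had the reverse pattern. With no such minimum, 1 gene had 0 counts in all 10 rotenone libraries and a count in every DMSO library, but with only 1 to 2 counts in each of those it was too scarce to be tested. The lower genes had low mean levels. As means over all 15 libraries, their median level was 2.98 CPM, against 7.52 CPM over all genes tested. Of the 309 lower genes, 252 lay under 10 CPM. Higher genes had a median of 9.29 CPM. A fall in the 10 rotenone libraries lowers such a mean and a rise lifts it. These levels and the abundance classes that follow are therefore partly built in by the choice of genes. By abundance, 3.27% of the genes under 1 CPM were called, 2.82% of those from 1 to 10 CPM, 1.07% of those from 10 to 100 CPM and 0.404% of those from 100 to 1000 CPM. Of 142 genes over 1000 CPM, which held 57.9% of all counts, 0 passed edgeR's test, 10 had an unadjusted p under 0.05 and the smallest adjusted p was 0.0718. DESeq2, limma voom and the edgeR fit with a mean for each dose each called 1 of these genes, and voom with quality weights called 2. Their log2 fold changes lay between -1.18 and 1.37.

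For most of the genes tested, a large common effect of rotenone could be bounded. The 95% interval of the fold change is approximate and was taken without adjustment for the number of genes. It lay within 2-fold in either direction for 10746 genes (67.9%) and within 1.5-fold for 6054 genes (38.2%). The share within 2-fold was 84.1% from 10 to 100 CPM and 70.4% over 1000 CPM, but 28.1% under 1 CPM. The standard error (SE) of the log2 fold change had a median of 0.43 under 1 CPM and 0.18 from 10 to 100 CPM, so differences in the scarcest genes were the least well measured.

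The lower genes together took 0.170% of the counts in rotenone libraries and 0.551% in DMSO libraries, as means over libraries. Their summed level was 1785, 1416, 1665, 2639 and 1868 CPM in 15 pM libraries 1 to 5 and 1855, 1447, 1416, 1315 and 1516 CPM in 150 pM libraries 8 to 12. In DMSO libraries 1 to 5 it was 5283, 8487, 4324, 4300 and 4667 CPM. Library 4 was the highest of the rotenone libraries and library 2 the highest of the DMSO libraries, and the groups did not overlap, a separation that the choice of these genes brings with it. Without the 2 most abundant lower genes the sums ranged from 916 to 1889 CPM in rotenone libraries and from 2767 to 5885 CPM in DMSO libraries.

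Taken gene by gene rather than as a sum, the same libraries stood out. Relative to the DMSO mean of each gene, the median log2 level of the 309 lower genes was -1.81, -2.96, -2.23, -0.97 and -1.61 in 15 pM libraries 1 to 5. At 150 pM it was -1.63, -2.59, -2.31, -2.60 and -2.33 in libraries 8 to 12. DMSO libraries 1 to 5 were at 0.14, 0.81, -0.39, -0.32 and -0.16. Within the 15 pM dose, library 4 was the highest in 61.5% of the lower genes, against 35.3% of all genes tested, and library 2 was the lowest in 66%, against 19.5%. Within the 150 pM dose, library 8 was the highest in 54.4% of the lower genes, against 21% of all genes tested. Among DMSO libraries, library 2 was the highest in 253 of the 309 lower genes (81.9%, against 17.1% of all genes tested) and the lowest in 0 of them. High DMSO values helped these genes to be called, and without DMSO library 2 only 100 lower genes were called. The high share in DMSO library 2 is therefore partly built in. In 15 pM library 4 and DMSO library 2, then, the lower genes stood high as a group within their own treatment. What sets these libraries apart was not tested.

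**Figure D2:**
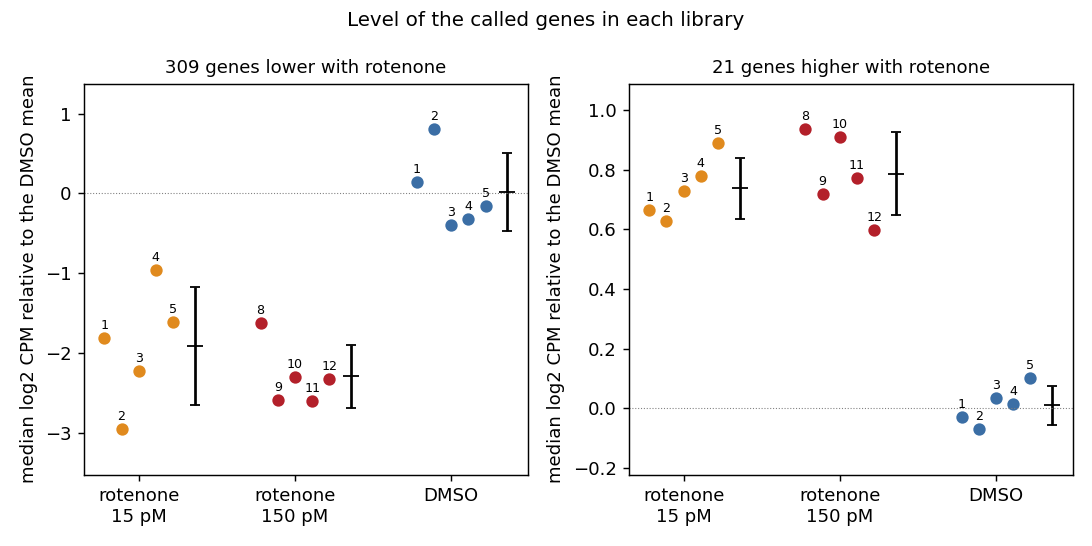
Median log2 CPM of the 309 lower genes (left panel) and the 21 higher genes (right panel) in each library, relative to the DMSO mean of each gene (vertical axes), by group (horizontal axes). Points are libraries with their number, and bars are the mean ± SD over 5 libraries; 15 pM library 4, at -0.97, lies nearest to the DMSO libraries on the left, and DMSO library 2, at 0.81, lies farthest above them. The genes were chosen on these same values, so the gap between groups is a description.

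Spread within groups was also wider in the lower genes than in genes at large. Their within-group SD of log2 CPM had a median of 0.89 at 15 pM, 0.63 at 150 pM and 0.62 in DMSO, against 0.46, 0.32 and 0.26 over all genes tested. The higher genes were steadier, with medians of 0.28, 0.31 and 0.21. Changes as small as most of theirs pass the test only where the spread is small, so this steadiness is partly built in. The lower genes were also scarcer than genes at large, and spread was not compared at equal abundance. Their median log2 level relative to DMSO lay between 0.60 and 0.94 in the 10 rotenone libraries and between -0.07 and 0.10 in the 5 DMSO libraries.

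Separation of the groups in the same CPM values, counted without a model, also gave more lower than higher genes. In 154 genes (0.973% of those tested) the CPM of every rotenone library lay below that of every DMSO library, and in 29 genes (0.183%) it lay above. Without 15 pM library 4 these numbers were 363 and 89. With fewer libraries this condition is easier to meet, so counts with libraries left out were nearly bound to rise. The lower genes without overlap were 232 and 255 when DMSO library 3 or 4 was left out, and the higher ones were 44, 66, 55 and 44 without DMSO library 1, 3, 4 or 5 and 44 without 150 pM library 9. Of the 309 lower genes, 142 were free of overlap, and 289 had at least 8 of the 10 rotenone libraries below the whole DMSO range. Of the 21 higher genes, 11 were free of overlap, and all 21 had at least 8 rotenone libraries above the DMSO range. The lower and higher genes were called on these same values, so such separation is partly built in. The share of all genes tested with at least 8 such libraries is not given here, so those counts are a description.

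Large fitted rises behaved differently from large fitted falls, a contrast that is partly built in. A mean of 10 rotenone libraries can be lifted 8-fold by 1 of them, but falls 8-fold only when nearly all are low. Whether 1 DMSO library held most of the CPM was not counted for the falls. A fitted rise of at least 8-fold occurred in 56 genes, of which 2 passed the test. Among the 54 that did not pass, 1 rotenone library held over 50% of the summed rotenone CPM in 32 genes, and 22 genes had at most 3 rotenone libraries above the DMSO range. The highest library was 150 pM library 10 in 22 of the 56 genes and 150 pM library 8 in 12, whereas 150 pM libraries 11 and 12 were the highest in 0. Without these libraries 8 and 10, rises of at least 8-fold were fitted for 27 genes, of which 1 passed, and without 15 pM library 4 as well for 15, of which 3 passed. Leaving out DMSO library 1 gave 90, of which 1 passed. Fitted falls of at least 8-fold occurred in 44 genes, of which 36 passed the test, and 41 of the 44 had at least 8 rotenone libraries below the DMSO range. The same share over all genes tested is not given here, and a large fall nearly brings such separation with it. Such falls numbered 113 without 15 pM library 4 (111 passed), 16 without DMSO library 2 (4 passed) and 67 without DMSO library 4 (57 passed). Without 150 pM libraries 8 and 10 there were 41, of which 30 passed, and without 15 pM library 4 as well there were 123, of which 115 passed.

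Among the higher genes, Nfu_g_1_015037 had the largest rise among called genes that averaged 5 CPM or more and had no overlap between the groups. The gene stood at 20.9, 10.9, 9.42, 42.0 and 27.4 CPM in 15 pM libraries 1 to 5 and at 33.0, 20.5, 43.6, 17.6 and 38.9 CPM in 150 pM libraries 8 to 12. In DMSO libraries 1 to 5 it stood at 4.71, 7.37, 7.99, 8.21 and 6.20 CPM. All rotenone libraries were higher than all DMSO libraries, with 15 pM libraries 2 and 3 closest to them, and the lowest rotenone library was 1.15-fold above the highest DMSO library. The fitted difference on the log2 scale was 1.94 (SE 0.36, adjusted p = 0.00964 by edgeR). It was 1.68 (SE 0.38) for 15 pM and 2.16 (SE 0.39) for 150 pM against the same DMSO libraries, and the difference of 0.47 between the doses did not pass the test (SE 0.37, edgeR adjusted p = 0.407).

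Nfu_g_1_010700 had the smallest p-value among the other higher genes of that kind. It held 8.85, 7.54, 6.89, 6.63 and 6.37 CPM in 15 pM libraries 1 to 5 and 8.96, 8.45, 7.62, 6.82 and 6.80 CPM in 150 pM libraries 8 to 12. DMSO libraries 1 to 5 held 4.15, 4.39, 4.78, 5.51 and 4.65 CPM. The rise was small and even, with a mean of 7.49 ± 0.957 CPM in rotenone libraries and 4.70 ± 0.516 CPM in DMSO libraries (SD, n = 10 and n = 5), and a fitted log2 fold change of 0.67 (SE 0.12, adjusted p = 0.00704 by edgeR). At 15 pM it was 0.63 and at 150 pM 0.72 above DMSO on the log2 scale.

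Nfu_g_1_012951 had the largest fall. With rotenone its level was at most 2.37 CPM, at 0.0383, 0.147, 0.0816, 2.37 and 0.402 CPM in 15 pM libraries 1 to 5 and at 0.680, 0.166, 0.101, 0.0725 and 0.285 CPM in 150 pM libraries 8 to 12. In 4 of these 10 libraries the value stood on 3 counts or fewer, while 15 pM library 4 held 64 counts, 150 pM library 8 held 17 and 15 pM library 5 held 11. DMSO libraries 1 to 5 held 4.85, 51.0, 27.3, 4.44 and 13.9 CPM, an uneven control group whose lowest library was still 1.87-fold above 15 pM library 4, the highest with rotenone. By edgeR it was -5.53 on the log2 scale (SE 0.80, 95% interval -7.22 to -3.83, adjusted p = 0.00167). Without 15 pM library 4 it was -6.48, and without DMSO library 2 it was -4.83.

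Nfu_g_1_004499, an abundant transcript with the second smallest p-value of all genes tested, fell by less but more evenly. Its level was 132, 166, 203, 207 and 185 CPM in 15 pM libraries 1 to 5 and 186, 206, 110, 132 and 155 CPM in 150 pM libraries 8 to 12. In DMSO libraries 1 to 5 it was 464, 960, 602, 402 and 571 CPM. The mean was 168 ± 34.9 CPM in rotenone libraries and 599.9 ± 217 CPM in DMSO libraries (SD, n = 10 and n = 5), and the lowest DMSO library was 1.94-fold above the highest rotenone library. The fitted log2 fold change was -1.84 (SE 0.20, adjusted p = 6.04e-04 by edgeR). At both doses the gene lay about equally far below DMSO, with -1.75 (SE 0.24) at 15 pM and -1.93 (SE 0.24) at 150 pM, and the difference of -0.18 between the doses did not pass the test (SE 0.24, edgeR adjusted p = 0.645).

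**Figure D3:**
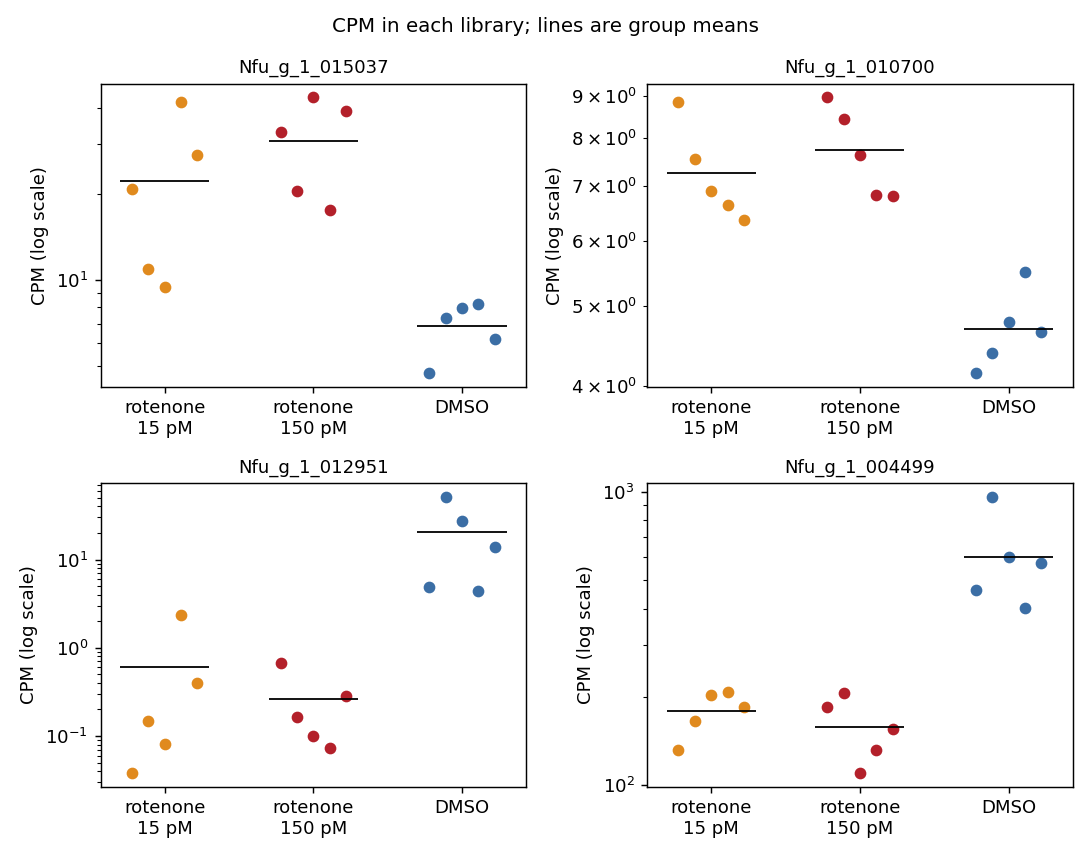
CPM (log scale, vertical axes) of the 2 higher genes (top) and the 2 lower genes (bottom) in each library, by group (horizontal axes), with lines at the group means. In all 4 genes the 10 rotenone libraries lie on 1 side of the 5 DMSO libraries; Nfu_g_1_012951 ranges from 0.0383 to 2.37 CPM with rotenone and from 4.44 to 51.0 CPM in DMSO.

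The 2 doses were set side by side in the called genes, since a pooled difference can come from 1 dose alone. In the 309 lower genes the median log2 fold change was -1.91 at 15 pM (quartiles -2.35 and -1.37) and -2.27 at 150 pM (quartiles -3.04 and -1.59). At least 2-fold lower levels were fitted for 274 of them at 15 pM and 286 at 150 pM. In the 21 higher genes the medians were 0.72 at both 15 pM and 150 pM. These values share the DMSO libraries, and the choice of genes nearly fixes that both doses lie on the same side of DMSO, so this is a description.

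**Figure D4:**
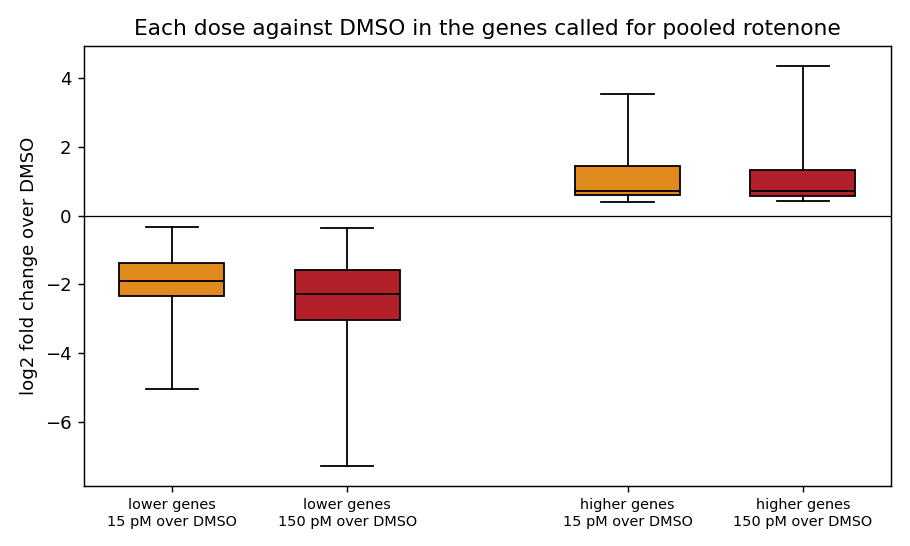
Log2 fold change of 15 pM (orange) and 150 pM (red) over the same DMSO libraries (vertical axis) in the 309 lower genes and the 21 higher genes. Boxes show quartiles and medians and whiskers the full range; the lower genes reach -5.04 at 15 pM and -7.27 at 150 pM, and the medians of the higher genes are 0.72 at each dose.

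The doses were also tested directly against each other, 150 pM against 15 pM, in the fit with a mean for each group. In that fit the DMSO libraries enter the filter, the scaling and the estimate of the spread, but not the difference itself. This test called 2240 of 15834 genes (14.1%), 9.14% of those tested higher and 5.00% lower at 150 pM. Among the 330 genes called for pooled rotenone it called 17 (5.15%). With the 10 rotenone libraries scaled and fitted alone on the same genes, the same comparison called 1022 genes (6.45%), and 7 of the 330 (2.12%). Without 150 pM libraries 8 and 10 it called 921 of 15591 genes tested and 1 of the 330. Without 15 pM library 4 as well it called 1373 of 15481 and 1. With 1 library left out, the fewest of the 330 were 7 (2.12%, against 10.2% of all genes tested), without 15 pM library 1. The most were 30 (9.09%, against 12.2%), without 15 pM library 2. The pooled fit counts a difference between the doses as spread, so that a low share among its calls is partly built in. All 17 of the fit with 15 libraries were lower genes, 16 of them lower at 150 pM than at 15 pM and 1 higher, and 0 of the 21 higher genes were called. In that edgeR test 2 of the 21 higher genes and 50 of the 309 lower genes had an unadjusted p under 0.05, against 30.7% of all genes tested. By the fitted values, 244 of the 309 lower genes were lower at 150 pM than at 15 pM. The same share over all genes tested is not given here, so this count is a description. The count was not made anew with libraries left out, so how far it depends on single libraries was not tested. Within their doses, 15 pM library 4 was the highest in 61.5% of the lower genes and 150 pM library 8 in 54.4%. The pooled calls, in contrast, were made anew with libraries left out. Without 150 pM libraries 8 and 10, 0 of 276 calls differed between the doses, against 5.91% of all genes tested. Leaving out 15 pM library 1 gave 9 of 300 calls (10.2% of all genes tested), library 2 gave 24 of 273 (12.2%) and library 3 gave 15 of 247 (15.4%). Leaving out 15 pM library 4 gave 47 of 907 (15.3%) and library 5 gave 12 of 271 (14.7%). The 150 pM libraries 8 to 12 in turn gave 6 of 327, 5 of 263, 6 of 265, 8 of 249 and 7 of 246. DMSO libraries 1 to 5 in turn gave 4 of 183, 3 of 104, 11 of 292, 18 of 304 and 9 of 244. With these 150 pM or DMSO libraries left out, the share over all genes tested was 9.74% to 13.4%.

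A fit with a mean for each dose, in which the average of both doses was set against DMSO, called 489 lower (3.09%) and 56 higher genes (0.354%), 545 in all (3.44% of those tested). These included all 330 genes of the pooled fit. Of the 545 genes, 96 (17.6%) also differed between the doses, near the 14.1% of all genes tested. Of these 96, 79 were among the 215 genes that the pooled fit did not call (36.7% of the 215). The pooled fit counts a difference between the doses as spread, so the high share among genes it left out is partly built in.

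Called genes came from the whole range of gene lengths. Lower genes had a median length of 2285 bases and higher genes 2669 bases, against 2811 bases over all genes tested. In 4 equal classes of length, from shortest to longest, 79, 104, 75 and 51 genes were lower. In the longest class the median log2 fold change was -0.089 at 15 pM and 0.080 at 150 pM against DMSO, which in the pooled comparison left a median of 0.022.

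Whole-library measures placed rotenone livers apart from DMSO livers in part. The median Pearson correlation of log2 CPM across genes with DMSO libraries was 0.921 ± 0.0222 for rotenone libraries and 0.962 ± 0.00603 for DMSO libraries, each set against the other 4 (SD, n = 10 and n = 5), a difference of -0.040 (exact permutation test over libraries, two-sided, p = 0.000333, the smallest that 5 of 15 can give; adjusted over 6 measures p = 0.002). Without DMSO library 2 the difference was -0.038, with an adjusted p of 0.126 in the exact permutation test. Rotenone libraries also varied more, with a median SD of log2 CPM over all genes tested of 0.481, against 0.263 in DMSO libraries. The value of 0.481 was taken over both doses together, so it includes differences between them. Within doses the median SD was 0.456 at 15 pM, which holds library 4, and 0.320 at 150 pM, closer to DMSO. The correlation with DMSO libraries does not tell a shift from a wider spread. The first principal component of log2 CPM, with 28.2% of the variance, averaged 14.05 ± 56.8 in rotenone libraries and -28.1 ± 17.2 in DMSO libraries (exact permutation test, two-sided, n = 10 and n = 5, p = 0.131, adjusted p = 0.393). It ran from -133 in 15 pM library 4 to 56.9, and without that library the difference of means was 58.5 (exact permutation test, adjusted p = 0.00599). That library was already known to stand apart, and the component was not computed anew without it. Its removal favoured a difference, so this p-value is no independent support. Total counts, genes with a count, the share of the 10 most abundant genes and the second component had adjusted p of 0.615 in the exact permutation test with all libraries. On the third component, with 14.5% of the variance, rotenone libraries lay between 3.34 and 79.7 and DMSO libraries between -65.4 and -26.6. That component was looked at after its values were seen and was not tested.

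How many genes were called depended on single libraries. The extremes were 907 genes without 15 pM library 4, of which 78.9% were lower, and 104 genes without DMSO library 2, of which 96.2% were lower. Without DMSO library 1 there were 183. The higher genes numbered 13 and 11 without DMSO library 4 or 5. Without 150 pM libraries 8 and 10 the numbers were 261 and 15. Leaving out any of the other 10 single libraries gave 225 to 306 lower genes and 16 to 26 higher genes. The median log2 fold change of the 309 lower genes moved less, to between -2.24 (15 pM library 4 left out) and -1.85 (DMSO library 2 left out).

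**Figure D5:**
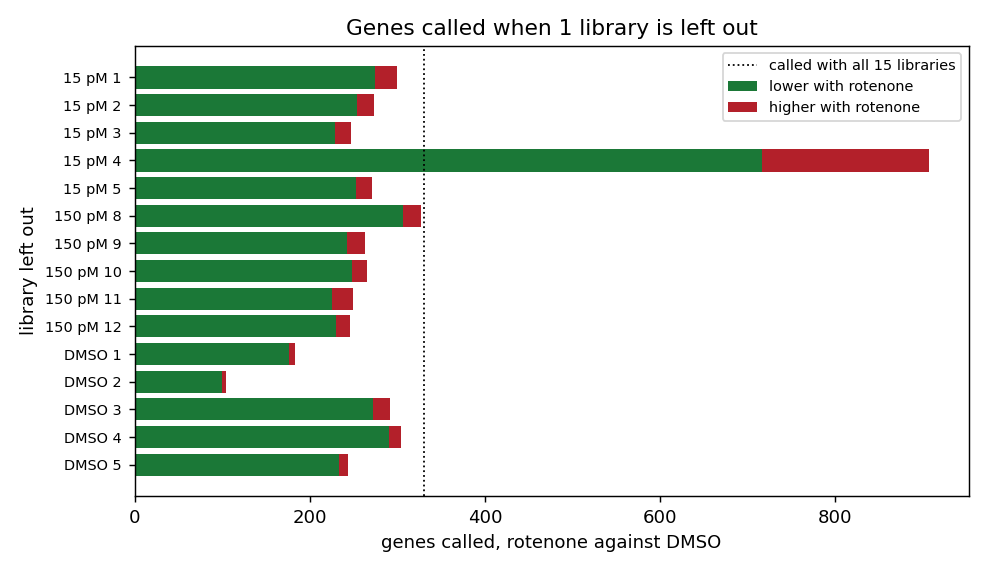
Number of genes called for rotenone against DMSO (horizontal axis) with 1 library left out (vertical axis), lower genes in green and higher genes in red; the dotted line marks the 330 genes called with all 15 libraries. Totals range between 104, with DMSO library 2 left out, and 907, with 15 pM library 4 left out.

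A smaller group of genes was called in every one of these fits. It held 104 genes, 100 lower and 4 higher, which were called with all libraries and in each of the 15 fits with 1 library left out. These are the same 104 genes that were called without DMSO library 2, so that fit alone set the group. The 100 lower genes had a median log2 fold change of -2.40, a range of -5.53 to -1.14 and a median level of 3.16 CPM. Of these 100, 84 had no overlap between the groups, against 0.973% of all genes tested, a separation partly built in by the choice of genes. Of the 104 genes, 3 differed between the doses, against 14.1% of all genes tested. The pooled fit counts such a difference as spread, so this low share is also partly built in. All 104 except 1 higher gene were also called by 3 other scalings, by limma voom with and without quality weights, by DESeq2 and in the fit with a mean for each dose. The filter of 1 CPM in 10 libraries and the fixed replicate block described below, with 123 calls and 1 call, were not among these fits.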

How the data were processed

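Per the labels, total RNA was made into TruSeq RNA v2 libraries, a kit that does not mark strand, and the submitters' processing notes name featureCounts 1.4.6-p4, STAR 2.4.1d and CASAVA 1.8.2 with no role. Neither build nor annotation is given in the sources used here. What the authors deposited was whole-number read counts per gene identifier, which were tested as deposited. The deposited RPKM values served only to recover gene lengths, because most had been divided by another library's total: totals recycled down the rows gave 1 length within 0.2% for 100% of 105783 values, and each library's own total did so for 8.73%. Genes that share reads with a copy, overlap or lie antisense to another are uncertain.

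The main test was edgeR 4.0.16 (quasi-likelihood, two-sided, TMM) in R 4.3.3 with 2 group means, rotenone (n = 10) and DMSO (n = 5). The filterByExpr function with a minimum count of 10 kept 15834 of 26739 genes, with 99.9% of the counts. Benjamini-Hochberg adjustment ran over all genes tested, with a threshold of 0.05. CPM uses TMM factors, and log2 CPM for components, correlations and spread adds a prior count of 0.5. Alternatives used DESeq2 1.42.0 and limma 3.58.1. Across the 30 within-group pairs, chi-square per degree of freedom was 43.4 to 791, and each library counted once.

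Gene lists set for symbols could not be applied. The 4 identifiers are, in each direction, the largest fold change and then the smallest p-value among called genes averaging 5 CPM or more with no overlap between groups. The comparison and its lists were chosen with earlier results of these data known.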

Additional observations from a re-analysis of the deposited data

Results flagged for a closer look

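In groups of 4 to 10 libraries, a library was singled out when its gap to the nearest other library was large against the whole range of its group. Chance does so in about 1 in 20 groups, and 9 of the 60 groups examined here, many of them overlapping, held such a library. The 15 pM library 4 was singled out among the 10 rotenone libraries on the first component (-133), on the third component (79.7, also among the 5 libraries of its dose), in its median correlation with DMSO libraries (0.865), in the summed level of the 309 lower genes (2639 CPM) and in Nfu_g_1_012951 (2.37 CPM, also within its dose). DMSO library 2 was singled out in the summed level of the lower genes, at 8487 CPM, and DMSO library 1 in its total of 35672589 counts. The 17 genes called for pooled rotenone that also differed between 150 pM and 15 pM were singled out because the direct test of the doses called them.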

How the results depend on the processing

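Called genes, with lower and higher ones in that order, numbered 545 (489 and 56) with a mean for each dose, 745 (544 and 201) with DESeq2, 571 (543 and 28) with limma voom, 1171 (923 and 248) with voom quality weights, and 123 (112 and 11) under the filter of 1 CPM in 10 libraries. Without 15 pM library 4 and 150 pM libraries 8 and 10 they numbered 959 (754 and 205). Library totals in place of TMM left 7 higher genes, and an added setting, chosen after seeing the data, without DMSO library 2 and 15 pM library 4, gave 40 higher genes. RLE and upper-quartile factors, no filter and removal of each library's trend with length kept every total within 1.5 times. Leaving out 1 library gave 104 to 907 calls, 100 to 716 lower and 4 to 191 higher. None of the 330 genes, where tested, changed sign in any of these settings.

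Genes called between the doses among the pooled calls numbered 96 of 545 with a mean for each dose and 9 with library totals. With all libraries and TMM factors, the test of the doses called 14.1% of all genes tested. They numbered 6 under the 1 CPM filter, 7 with the 10 rotenone libraries alone and 0 without 150 pM libraries 8 and 10. With 1 library left out they ranged from 3 (of 104 pooled calls) to 47 (of 907). Genes without overlap, rotenone higher, numbered 9 with library totals, 52 without 150 pM libraries 8 and 10, 173 when 15 pM library 4 was left out as well, 83 in the added setting and 30 to 89 with 1 library left out. Those with rotenone lower numbered 76 under the 1 CPM filter, 553 without the 3 libraries, 379 in the added setting and 155 to 363 with 1 library left out. A rise in these counts with fewer libraries was nearly fixed in advance.

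Samples at 15 pM and DMSO share the numbers 1 to 5, but deviations of same-numbered libraries correlated by -0.042 to 0.067, 0 of 5 pairs above 0.1, and 0 of the 5 libraries at 15 pM correlated best with its own number. A fixed replicate block, which absorbs 150 pM and leaves the 15 pM pairs alone, gave 1 call, 1 higher and 0 lower, which was not among the 330 genes. Fold changes stayed about as large under it, with medians of -1.995 in the 309 lower genes and 0.70 in the 21 higher genes, against -2.12 and 0.74 without a block. A random replicate block in limma voom gave 571 calls, 543 of them lower. The groups share only a number.

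Library measures, rotenone minus DMSO, ranged with 1 library left out from -2408827 to 219249 total counts, from -202 to 26.8 genes with a count, from 37.0 to 58.5 on the first component and from -0.050 to -0.034 in correlation with DMSO. The share of the 10 most abundant genes differed by 0.681 percentage points without 150 pM libraries 8 and 10, against -1.08 with all. The cause of these shifts was not tested. Genes under 1 CPM are the ones that depth limits most.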
